A study of Rattus norvegicus with 9 samples.

Results

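A set of 10 genes of voltage-gated calcium channels were examined in RNA-Seq data of the dorsal root ganglion (DRG), chosen as the rows of the gene table with the symbols Cacna1a, Cacna1b, Cacna1c, Cacna1d, Cacna1e, Cacna1h, Cacna1i, Cacna2d1, Cacna2d2 and Cacna2d3. Each symbol matched 1 row, so that 10 of the 20413 genes in the table were taken, 7 of them coding pore-forming alpha1 subunits and 3 coding alpha2delta subunits. The DRGs came from adult male Sprague Dawley rats, at L4-6 on the ipsilateral (right) side, on day 10. In the chronic post-ischemia pain (CPIP) group, an O-ring around the ankle had stopped blood flow to the hind paw and was then cut for reperfusion, as a model of complex regional pain syndrome. In the CPIP+EA group, rats with the same injury were also given electroacupuncture (EA) on both hind limbs once a day for 10 days. In the Sham group, named Con in the sample labels, no ischemia was made: the ring had been cut open beforehand, under the same anesthesia. No sequenced group received needles without current, and none received EA without CPIP, so current, needling and handling cannot be told apart. Each group had 3 libraries, from 3 rats, and the whole ganglion was used, so that fewer cells of a type and less RNA per cell cannot be told apart.

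Voltage-gated calcium channels open when the membrane is depolarised and let calcium enter the cell. The alpha1 subunit forms the pore and sets the type of current. Cacna1b codes the N-type pore and Cacna1a the P/Q-type pore, which drive transmitter release at nerve terminals, and Cacna1e codes the R-type pore. Cacna1c and Cacna1d code L-type pores, and Cacna1h and Cacna1i code T-type pores, which open at low voltages and shape the firing of small sensory neurons. The alpha2delta subunits are extracellular proteins that help to carry the channels to the surface and to terminals. Gabapentin and pregabalin, the gabapentinoids used for neuropathic pain, bind the products of Cacna2d1 and Cacna2d2 but not that of Cacna2d3. A rise of Cacna2d1 in sensory neurons after nerve injury is known from other models.

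The windows of 250 bases before the annotated start of the 3 alpha2delta genes are shown because only 1 of the 3 was called in the data, so that their sequence can be set beside their levels. They are RefSeq sequences of the GRCr8 assembly, read 5′ to 3′ on the strand of the gene, and capitals mark each match to the GC box, GGGCGG or its reverse complement, with matches that touch or overlap running together. The windows lie at chr4:20330148-20330397 on the minus strand for Cacna2d1 (the first listed of 3 starts), at chr8:116950856-116951105 on the plus strand for Cacna2d2 and at chr16:4918900-4919149 on the minus strand for Cacna2d3.
Cacna2d1: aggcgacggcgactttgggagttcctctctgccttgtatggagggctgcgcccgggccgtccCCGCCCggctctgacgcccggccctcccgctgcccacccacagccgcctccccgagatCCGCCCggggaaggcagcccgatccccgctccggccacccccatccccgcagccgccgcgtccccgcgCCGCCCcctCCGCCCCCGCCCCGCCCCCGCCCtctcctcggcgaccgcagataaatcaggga
Cacna2d2: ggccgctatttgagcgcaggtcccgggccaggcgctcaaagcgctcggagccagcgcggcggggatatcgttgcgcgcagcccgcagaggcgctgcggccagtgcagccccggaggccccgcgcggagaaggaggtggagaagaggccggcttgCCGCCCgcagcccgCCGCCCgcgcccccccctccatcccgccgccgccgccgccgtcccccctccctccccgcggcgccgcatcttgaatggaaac
Cacna2d3: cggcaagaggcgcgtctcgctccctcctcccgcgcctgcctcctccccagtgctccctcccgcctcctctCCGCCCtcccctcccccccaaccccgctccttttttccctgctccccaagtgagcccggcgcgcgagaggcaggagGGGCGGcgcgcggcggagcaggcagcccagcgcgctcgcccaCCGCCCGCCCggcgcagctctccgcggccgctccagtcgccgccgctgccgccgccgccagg
All 3 windows were rich in G and C, at 77.2% in Cacna2d1, 76.8% in Cacna2d2 and 78.8% in Cacna2d3, against a median of 51.2% over 33469 windows of the same length. The GC box had 7 matches before the first listed start of Cacna2d1 and 3 before each of its 2 other starts, 2 before Cacna2d2 and 4 before Cacna2d3, and at least 1 match in 30.5% of all windows. Searched on both strands, TGACTCA (AP-1), TGACGTCA (CRE), TATAAA and TTCAGCACC (RE1 core) were found in none of the 3 windows, and they matched 4.05%, 1.59%, 12.9% and 0.305% of all windows. CCAAT also matched none of the 3, against 34.0% of all windows. An absent match says only that these letters are not in the window, and a match is not a site of binding. Of the alpha1 genes 5 had a window in the same set, and Cacna1h and Cacna1i had none.

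Levels are FPKM, the fragments assigned to a gene per kilobase of transcript, scaled to the fragments of the library, as the authors deposited them. FPKM carries no read count, so the depth behind a value is not given by the files, and precision is set by the 3 libraries a group. Added over all genes, the FPKM of a library came to between 445647 and 482940. The samples showed the neuronal markers that define a DRG, with a summed level of 11 neuronal markers between 11029 and 13338 FPKM in each library, while 5 markers of oligodendrocytes and astrocytes of the spinal cord summed to between 8.92 and 20.9 FPKM. CPIP+EA replicate 3 stood apart. It was the lowest of the 9 libraries for 9 of the 10 channel genes, which was so for 14.1% of the 17187 genes tested. In that library 7 markers of nonpeptidergic and C-fibre neurons summed to 251 FPKM, against 341 to 397 FPKM in the other libraries, and 5 erythroid markers summed to 2383 FPKM, against 250 to 1446 FPKM. The part of these in the channel genes' values was not tested, and values without this library are given beside results below.

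Of the 10 genes, Cacna2d1 was higher in the CPIP and CPIP+EA groups than in Sham, with no difference called between CPIP+EA and CPIP. No other gene of the 10 passed the threshold in any comparison. Differences were tested as log2(FPKM + 0.5) with limma, and a gene was called at a Benjamini-Hochberg adjusted p under 0.01, over all genes tested, with at least a 1.5-fold change. All 10 genes passed the filter on low values, a mean of at least 0.1 FPKM. Between CPIP and Sham 1 of the 10 was called, where 0.355% of all genes tested were called. Between CPIP+EA and CPIP none of the 10 was called, where 0.0% of all genes were called by limma and 4.29% (738 genes) had an unadjusted p under 0.05, among them 1 of the 10. With 1 library left out the latter count ranged from 501 genes, when CPIP replicate 2 was dropped, to 1248 genes, when CPIP+EA replicate 3 was. Dropping CPIP+EA replicate 1 gave 1172. Between CPIP+EA and Sham 1 of the 10 was called, against 0.483% of all genes. The 2 comparisons with Sham share the Sham libraries, so they are not independent of each other.

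**Figure D1:**
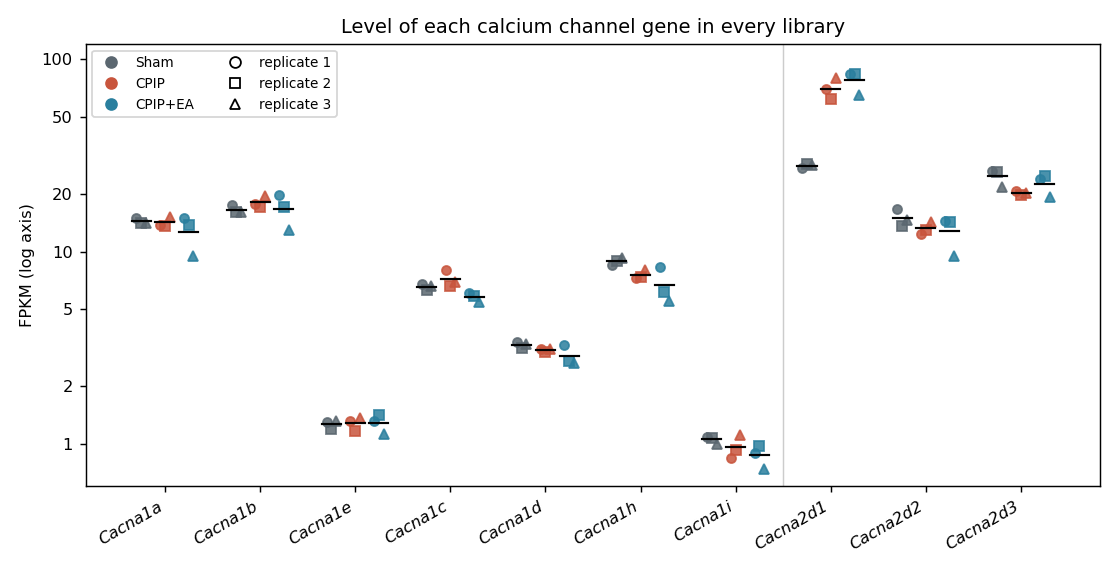
Level of the 10 calcium channel genes in each of the 9 libraries, in FPKM on a log axis, with alpha1 genes left and alpha2delta genes right of the grey line. Points are libraries (colour for group, shape for replicate) and bars are group means (n = 3). Cacna2d1 lay between 27.0 and 28.5 FPKM in Sham and at 61.8 FPKM or above in all other libraries. CPIP+EA replicate 3 was the lowest of the 9 libraries for the 9 other genes.

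Cacna2d1 codes alpha2delta-1, the main target of gabapentin and pregabalin. Its level was 27.0, 28.5 and 28.1 FPKM in the Sham libraries, 69.6, 61.8 and 79.7 FPKM in the CPIP libraries and 84.0, 84.2 and 64.9 FPKM in the CPIP+EA libraries. Every CPIP and CPIP+EA library was above every Sham library, and the CPIP and CPIP+EA libraries overlapped. The means were 27.9 ± 0.785 FPKM (SD, n = 3) in Sham, 70.4 ± 8.96 FPKM (SD, n = 3) in CPIP and 77.7 ± 11.1 FPKM (SD, n = 3) in CPIP+EA. Cacna2d1 was 2.48-fold higher in CPIP than in Sham on the log2(FPKM + 0.5) scale (95% interval 2.07 to 2.98, log2 fold change 1.31, SE 0.12, adjusted p = 0.00108 by limma). It ranked 21st of 17187 genes by p, and 64 genes had a larger log2 fold change. In CPIP+EA it was 2.74-fold higher than in Sham (95% interval 2.28 to 3.29, adjusted p = 0.000456 by limma). Against CPIP, the CPIP+EA level was 1.10-fold (95% interval 0.917 to 1.32, adjusted p = 0.996 by limma), so a fall of Cacna2d1 with EA to below 0.917 of the CPIP level lay outside the interval. The log2 fold change against CPIP, 0.14, depended on single libraries. It was 0.26 without CPIP+EA replicate 3, at an unadjusted limma p under 0.05, and 0.23 without CPIP replicate 3, while dropping CPIP replicate 2 gave 0.051, dropping CPIP+EA replicate 2 gave 0.077 and dropping CPIP+EA replicate 1 gave 0.079. When each library was centred on its neuronal markers, the log2 fold change of Cacna2d1 between CPIP and Sham was 1.33. Relative to the mean of the 9 libraries, the mean log2 level of these markers was 0.13, -0.02 and -0.11 in Sham. It was -0.05, -0.03 and 0.04 in CPIP. The part of neuron content in the Cacna2d1 level was not tested. Single neuronal markers did differ at an unadjusted p, with Tubb3 at a log2 fold change of 0.41 and Stmn2 at 0.38 in CPIP against Sham, and Snap25 at -0.24 and Rbfox3 at -0.34. Of the 11 neuronal markers 0 were called by limma, 2 were higher and 2 lower at an unadjusted p under 0.05 (8.66% of all genes in either direction), and 7 did not overlap between CPIP and Sham (15.9% of all genes). Skeletal muscle markers varied widely between libraries. The 5 markers summed to 15.4, 11.9 and 9.26 FPKM in Sham, 27.0, 122 and 7.52 FPKM in CPIP and 11.8, 37.3 and 32.7 FPKM in CPIP+EA. Their median log2 fold change was 1.13 in CPIP against Sham, -0.33 in CPIP+EA against CPIP and 0.96 in CPIP+EA against Sham, and by limma 0 of the 5 were called and 0 had an unadjusted p under 0.05. Their part in the Cacna2d1 level was not tested.

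Cacna2d2 codes alpha2delta-2, the other subunit that binds gabapentinoids. Its level was 16.7, 13.6 and 14.7 FPKM in Sham, 12.3, 13.0 and 14.3 FPKM in CPIP and 14.4, 14.3 and 9.49 FPKM in CPIP+EA. The 3 groups overlapped, with the lowest value in CPIP+EA replicate 3. The log2 fold change was -0.18 (95% interval -0.52 to 0.17) in CPIP against Sham and -0.07 (-0.42 to 0.27) in CPIP+EA against CPIP, and without CPIP+EA replicate 3 the latter turned to 0.12, while with other single libraries left out it lay between -0.17 and -0.015. The former was -0.098 without Sham replicate 1. Unlike Cacna2d1, it therefore gave no call in either direction.

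Cacna2d3 codes alpha2delta-3, which does not bind gabapentinoids. Its level was 26.3, 25.9 and 21.8 FPKM in Sham, 20.5, 19.6 and 20.1 FPKM in CPIP and 23.8, 24.6 and 19.2 FPKM in CPIP+EA. All CPIP libraries were below all Sham libraries, by a small margin, while CPIP+EA overlapped both. In CPIP against Sham the log2 fold change was -0.29 (95% interval -0.52 to -0.05), with an adjusted p of 0.445 by limma (unadjusted p = 0.0225), so this difference was not called. The unadjusted p was no longer under 0.05 without Sham replicate 1, Sham replicate 2 or CPIP replicate 2. CPIP+EA against CPIP gave 0.15 (-0.08 to 0.39), which moved to 0.26 without CPIP+EA replicate 3, at an unadjusted limma p under 0.05, and to 0.088 without CPIP+EA replicate 2.

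**Figure D2:**
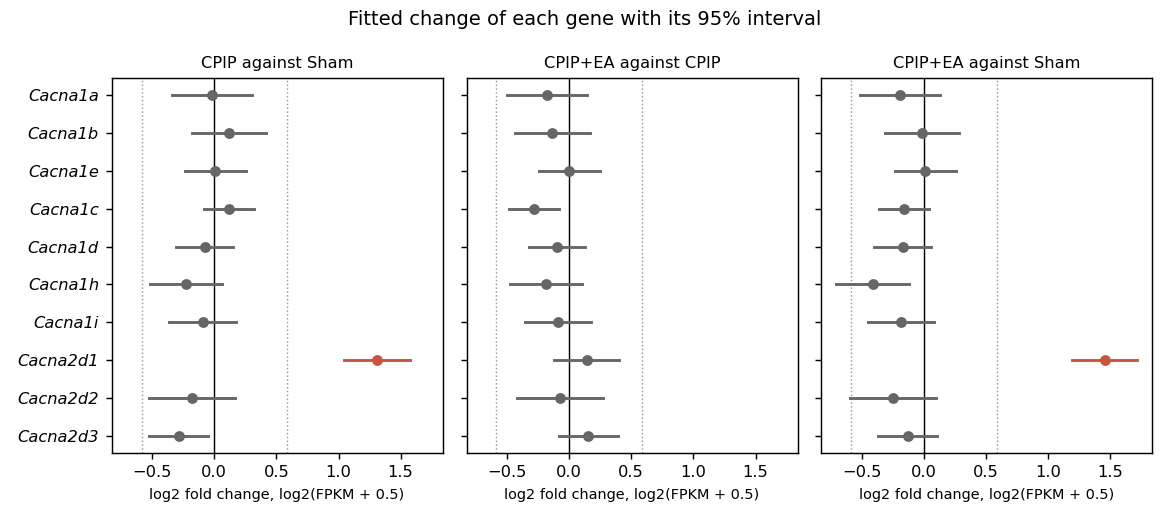
Fitted log2 fold change of each of the 10 genes in the 3 comparisons, on the log2(FPKM + 0.5) scale, with bars for the 95% interval of the limma fit and dotted lines at 1.5-fold. Cacna2d1 (red) passed the threshold in both comparisons with Sham and not between CPIP+EA and CPIP, and the intervals of the 9 other genes lay within 1.5-fold between CPIP and Sham.

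Cacna2d1 thus took a larger share of the alpha2delta transcripts. Within each library, it made up 38.6, 41.9 and 43.6% of the summed FPKM of the 3 genes in Sham, 67.9, 65.5 and 69.9% in the CPIP group, and 68.7, 68.4 and 69.4% with EA. In Sham it was near the level of Cacna2d3, at 1.03 to 1.29 times, and it reached 3.16 to 3.97 times that level in the CPIP libraries and 3.39 to 3.53 times with EA. The ratio of Cacna2d1 to Cacna2d2, both gabapentinoid targets, was 1.62, 2.09 and 1.92 in Sham, 5.65, 4.76 and 5.57 in the CPIP group, and 5.82, 5.91 and 6.84 with EA. These ratios are taken within a library and so do not depend on how libraries were scaled to each other. The groups did not overlap in the ratio to Cacna2d2, and an exact permutation test (two-sided) gave p = 0.1 for each pair of groups, which is the smallest value that 20 divisions of 3 against 3 libraries allow. For the ratio to Cacna2d3 the same exact test gave p = 0.1 for CPIP against Sham and p = 0.9 for CPIP+EA against CPIP. The summed alpha2delta level, compared with the summed level of the 7 alpha1 genes, was 1.31, 1.34 and 1.25 times in Sham, 1.97, 1.90 and 2.07 times in CPIP and 2.24, 2.57 and 2.47 times in CPIP+EA.

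**Figure D3:**
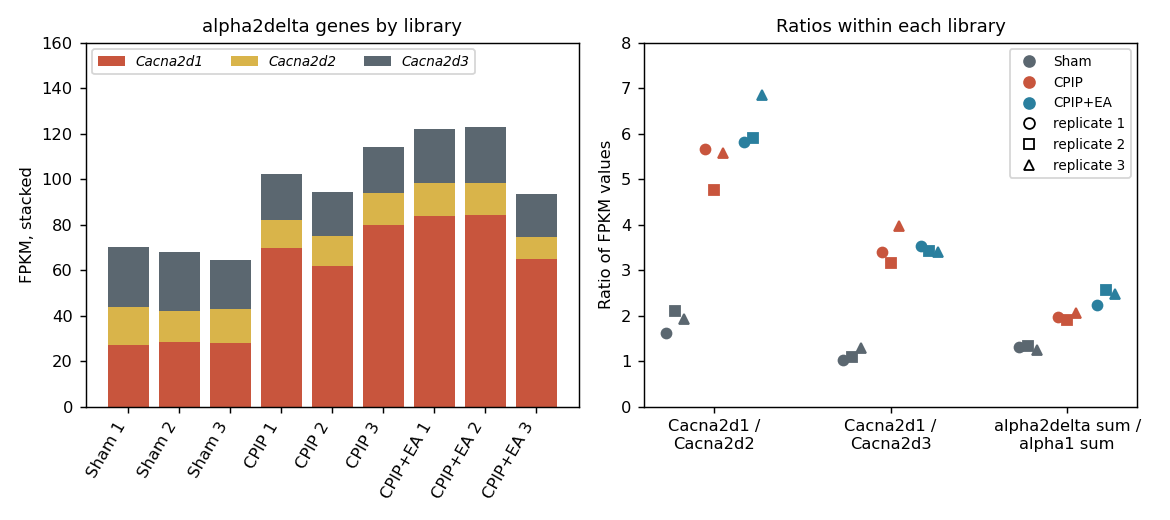
Left, FPKM of Cacna2d1, Cacna2d2 and Cacna2d3 stacked for each of the 9 libraries. Right, ratios of FPKM values within each library, each point 1 library; the Cacna2d1 to Cacna2d2 ratio was at most 2.09 in Sham and at least 4.76 in the other libraries, and CPIP and CPIP+EA overlapped in the ratio to Cacna2d3.

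The pores that drive transmitter release showed small differences. Cacna1b (N-type) was at 17.5, 16.0 and 16.1 FPKM in Sham, 17.7, 16.9 and 19.4 FPKM in CPIP and 19.7, 17.1 and 13.0 FPKM in CPIP+EA. The groups overlapped, and CPIP+EA held both the highest and the lowest library. The log2 fold change was 0.12 (95% interval -0.18 to 0.42) in CPIP against Sham and -0.14 (-0.44 to 0.16) in CPIP+EA against CPIP, where it turned to 0.03 without CPIP+EA replicate 3 and was -0.27 without CPIP+EA replicate 1 and -0.082 without CPIP replicate 3. In CPIP against Sham it was 0.066 without CPIP replicate 3. Cacna1a (P/Q-type) was at 14.9, 14.1 and 14.1 FPKM in Sham, 13.8, 13.6 and 15.1 FPKM in CPIP and 14.9, 13.7 and 9.47 FPKM in CPIP+EA. Only CPIP+EA replicate 3 left the range of 13.6 to 15.1 FPKM. Its log2 fold change was -0.02 (-0.34 to 0.30) in CPIP against Sham and -0.18 (-0.50 to 0.15) in CPIP+EA against CPIP. The latter was 0.01 without that library and -0.30 without CPIP+EA replicate 1. Cacna1e (R-type) was low, between 1.13 and 1.42 FPKM in all 9 libraries, with group means of 1.27, 1.29 and 1.29 FPKM in Sham, CPIP and CPIP+EA.

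The N-type gene was high relative to the P/Q-type gene in the injured groups, a ratio computed after the levels had been seen. Within each library, Cacna1b was 1.18, 1.13 and 1.14 times Cacna1a in Sham, 1.28, 1.25 and 1.28 times in CPIP and 1.32, 1.25 and 1.37 times in CPIP+EA. All Sham libraries were below all others, and CPIP and CPIP+EA overlapped. The exact permutation test (two-sided) gave p = 0.1 for CPIP against Sham, the smallest value possible, and p = 0.4 for CPIP+EA against CPIP. Cacna1b also took 31.2 to 32.8% of the summed alpha1 FPKM in Sham, 34.0 to 35.2% in CPIP and 34.1 to 36.1% in CPIP+EA.

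Among the L-type pores, Cacna1c, which is also found in smooth muscle, was at 6.75, 6.31 and 6.61 FPKM in Sham, 8.02, 6.63 and 6.94 FPKM in CPIP and 6.10, 5.84 and 5.49 FPKM in CPIP+EA. The CPIP+EA libraries were below all Sham and all CPIP libraries, and CPIP overlapped Sham. Of the 10 genes it was the 1 with an unadjusted p under 0.05 between CPIP+EA and CPIP (log2 fold change -0.28, 95% interval -0.48 to -0.08, unadjusted p = 0.0111, adjusted p = 0.996 by limma). It was also the 1 of 10 whose libraries did not overlap in that comparison, against 8.23% of all genes. In the same libraries, 5 markers of smooth muscle and pericytes had a summed level of 107 to 130 FPKM in Sham, 81.7 to 127 FPKM in CPIP and 85.8 to 124 FPKM in CPIP+EA, and their part in the Cacna1c level was not tested. Without CPIP+EA replicate 3 the log2 fold change was -0.25. Without CPIP replicate 1, the library with the highest Cacna1c level, it was -0.21 and no longer had an unadjusted p under 0.05 by limma. Cacna1d was at 3.38, 3.15 and 3.29 FPKM in Sham, 3.12, 2.99 and 3.11 FPKM in CPIP and 3.25, 2.70 and 2.62 FPKM in CPIP+EA. Its CPIP libraries were just below its Sham libraries, with a log2 fold change of -0.08 (95% interval -0.30 to 0.15).

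The T-type gene Cacna1h was at 8.55, 8.95 and 9.29 FPKM in Sham, 7.26, 7.35 and 8.03 FPKM in CPIP and 8.28, 6.18 and 5.54 FPKM in CPIP+EA. All CPIP and CPIP+EA libraries were below the lowest Sham library, and CPIP+EA spread over a wider range than CPIP. The log2 fold change was -0.23 (95% interval -0.52 to 0.06) in CPIP against Sham and -0.41 (-0.70 to -0.12) in CPIP+EA against Sham, with an adjusted p of 0.222 by limma for the latter (unadjusted p = 0.0106), so neither was called. Without CPIP+EA replicate 3 the latter was -0.30, and without CPIP+EA replicate 1 it was -0.57 (adjusted p = 0.0323 by limma). CPIP+EA against CPIP gave -0.18 (-0.48 to 0.11), which moved to -0.07 without replicate 3 and to -0.34 without replicate 1 of CPIP+EA. As a share of the summed alpha1 FPKM, Cacna1h was 16.0 to 18.0% in Sham, 13.9 to 14.8% in CPIP and 12.9 to 15.2% in CPIP+EA, below Sham in all 6 libraries. The 7 markers of nonpeptidergic and C-fibre neurons had a median log2 fold change of -0.21 in CPIP and -0.37 in CPIP+EA against Sham. Of the 7, 1 and 3 were lower at an unadjusted p under 0.05 (8.66% and 12.2% of all genes in either direction), and none was called. In direction alone, 3 of the 7 were higher in CPIP and 2 in CPIP+EA. The 4 markers of peptidergic nociceptors had medians of -0.16 and -0.14, with 0 higher in either comparison, 1 and 0 lower at an unadjusted p under 0.05, and none called. The nonpeptidergic and C-fibre markers summed to 358 to 397 FPKM in Sham, 341 to 366 FPKM in CPIP and 251 to 390 FPKM in CPIP+EA. The part of either list in the Cacna1h level was not tested. Cacna1i, another T-type gene, was the lowest of the 10 at between 1 and 1.09 FPKM in Sham, 0.840, 0.930 and 1.11 FPKM in CPIP and 0.900, 0.970 and 0.740 FPKM in CPIP+EA. CPIP overlapped Sham, and all CPIP+EA libraries were below all Sham libraries, with a log2 fold change of -0.18 (-0.45 to 0.08), or -0.11 without CPIP+EA replicate 3.

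In CPIP against Sham, the libraries of 4 of the 10 genes did not overlap (Cacna2d1 higher, and Cacna1d, Cacna1h and Cacna2d3 lower), against 15.9% of all genes, and 2 of the 10 had an unadjusted p under 0.05, against 8.66% of all genes. In CPIP+EA against Sham the libraries of 4 of the 10 did not overlap (Cacna2d1 higher, and Cacna1c, Cacna1h and Cacna1i lower), against 16.2%, and 2 of the 10 had an unadjusted p under 0.05, against 12.2%. The median log2 fold change of the 10 was -0.05 in CPIP against Sham, -0.09 in CPIP+EA against CPIP and -0.17 in CPIP+EA against Sham, beside -0.0064, 0.012 and 0.0014 over all genes tested. In CPIP against Sham the median of the 10 was -0.019 without CPIP replicate 1, -0.026 without CPIP replicate 2, -0.026 without Sham replicate 1 and -0.077 without CPIP replicate 3. In CPIP+EA against CPIP it turned to 0.020 without CPIP+EA replicate 3, and dropping CPIP+EA replicate 1 gave -0.17, dropping CPIP+EA replicate 2 gave -0.14 and dropping CPIP replicate 3 gave -0.050. In CPIP+EA against Sham it was -0.041 without CPIP+EA replicate 3. For the 9 genes other than Cacna2d1, the 95% intervals lay within 1.5-fold in all 9 in CPIP against Sham and in all 9 in CPIP+EA against CPIP. In CPIP+EA against Sham 7 of the 9 lay within it, the exceptions being Cacna1h and Cacna2d2, whose lower bounds were -0.70 and -0.59.

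**Figure D4:**
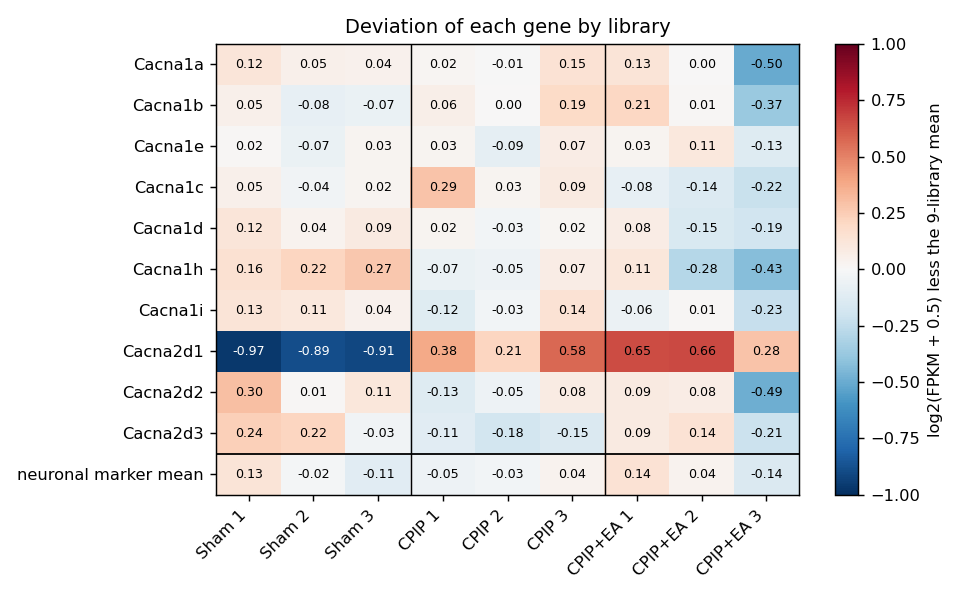
Log2(FPKM + 0.5) of each gene in each library less its mean over the 9 libraries, with the mean of 11 neuronal markers in the bottom row. Cacna2d1 is below its mean in the 3 Sham libraries and above it in the 6 others, and in CPIP+EA replicate 3 the other 9 genes have their lowest values, down to -0.50 in Cacna1a, where the neuronal markers are at -0.14.

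The mean of the neuronal markers was also at its lowest in CPIP+EA replicate 3, at -0.14. Cacna1a was at -0.50, Cacna1b at -0.37 and Cacna2d2 at -0.49 there relative to their means of the 9 libraries on the log2 scale. With the neuronal marker level subtracted they were at -0.36, -0.23 and -0.34, and these 3 were the only ones of the 10 that still had their lowest value in this library. Before subtraction, the other genes that were lowest there were closer to the marker level, except Cacna1h at -0.43. Cacna1e was at -0.13, Cacna1d at -0.19, Cacna2d3 at -0.21, Cacna1c at -0.22 and Cacna1i at -0.23. Cacna2d1 was the 1 gene of the 10 above its mean in this library, at 0.28. After subtraction, Cacna1h was at -0.28 there and at -0.32 in CPIP+EA replicate 2. In replicate 3, Cacna1e was then at 0.016, Cacna1d at -0.046, Cacna2d3 at -0.068, Cacna1c at -0.079 and Cacna1i at -0.088. The part of neuron content in these values was not tested.

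Since FPKM is scaled to transcript length, levels of different genes can be set side by side, with the limit that errors in transcript length do not cancel. Averaged over the 9 libraries, Cacna2d1 (58.7 FPKM) and Cacna2d3 (22.4 FPKM) came first, then Cacna1b (17.0 FPKM), Cacna1a (13.7 FPKM) and Cacna2d2 (13.6 FPKM), then Cacna1h (7.71 FPKM), Cacna1c (6.52 FPKM), Cacna1d (3.07 FPKM), Cacna1e (1.28 FPKM) and Cacna1i (0.961 FPKM). Cacna1a and Cacna2d2 could not be ordered, with Cacna1a higher in 5 of 9 libraries, and Cacna1h was above Cacna1c in 8 of 9. All other neighbours kept their order in 9 of 9 libraries, although the ranges over libraries overlapped between Cacna2d3 and Cacna1b and between Cacna1b and Cacna1a. Among the 7 alpha1 genes ranked here, the N-type and P/Q-type genes were the most abundant. The other alpha1 genes, among them the T-type gene Cacna1g, were not ranked.

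Other subunits of the same channels gave no call. Of 16 listed genes (the remaining alpha1 and alpha2delta genes, the intracellular beta subunits, Cacnb, and the gamma subunits, Cacng), 14 passed the filter and 0 were called by limma in any of the 3 comparisons, with 2, 0 and 2 at an unadjusted p under 0.05 in CPIP against Sham, CPIP+EA against CPIP and CPIP+EA against Sham (8.66%, 4.29% and 12.2% of all genes). Cacnb1, a beta subunit, was at 15.7, 13.9 and 13.8 FPKM in Sham, 18.0, 19.8 and 21.0 FPKM in CPIP and 20.1, 18.7 and 13.7 FPKM in CPIP+EA. CPIP was above Sham in all libraries (log2 fold change 0.43, adjusted p = 0.317 by limma), and CPIP+EA overlapped both. Cacng2, whose product is better known for carrying AMPA receptors to synapses, had log2 fold changes of -0.33 in CPIP and -0.34 in CPIP+EA against Sham (adjusted p = 0.408 and 0.273 by limma), and Cacng4, of the same family, had -0.26 in CPIP+EA against Sham. The list's median was 0.027 in CPIP against Sham, -0.091 in CPIP+EA against CPIP and -0.038 in CPIP+EA against Sham.

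Among 24 genes for proteins that bind or regulate the channels, 23 passed the filter. In CPIP against Sham 1 was called higher and 0 lower (0.355% of all genes were called), in CPIP+EA against CPIP 0 were called by limma, with 1 at an unadjusted p under 0.05, where 4.29% of all genes were (Prkca, a protein kinase C, at -0.13), and in CPIP+EA against Sham 2 were called higher and 0 lower (0.483% of all genes). The gene called in both comparisons with Sham was Stac2, an adaptor that binds L-type channels. It was at 0.460, 0.550 and 0.240 FPKM in Sham, 12.6, 13.2 and 14.7 FPKM in CPIP and 17.5, 12.8 and 11.2 FPKM in CPIP+EA. All injured libraries were far above Sham, with log2 fold changes of 3.95 in CPIP and 3.96 in CPIP+EA (adjusted p = 1.19e-05 and 1.09e-05 by limma). Camk2d, a subunit of the calcium/calmodulin-dependent kinase II, was at 29.5 to 31.5 FPKM in Sham, 42.3 to 47.1 FPKM in CPIP and 44.8 to 47.3 FPKM in CPIP+EA. It rose in CPIP+EA against Sham, by 1.51-fold and so just past the threshold (log2 fold change 0.59, adjusted p = 0.00155 by limma), and in CPIP against Sham its 0.53 (adjusted p = 0.00355 by limma) was under 1.5-fold. The list's median was -0.028, -0.035 and -0.091 in the 3 comparisons.

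Genes of the same list that differed without being called included a pair of small GTPases that inhibit channels. Rem2 was at 7.07, 7.27 and 7.96 FPKM in Sham, 4.02, 3.56 and 4.01 FPKM in CPIP and 5.77, 4.51 and 3.58 FPKM in CPIP+EA. All Sham libraries were above all others, and the log2 fold change was -0.86 in CPIP and -0.65 in CPIP+EA (adjusted p = 0.0358 and 0.0783 by limma). Rrad was between 0.460 and 1.44 FPKM in Sham and between 1.74 and 2.51 FPKM in CPIP, at a log2 fold change of 0.96 in CPIP and 0.88 in CPIP+EA (adjusted p = 0.164 and 0.150 by limma). Against Sham, CPIP+EA also had Rgs4, a regulator of G protein signalling, at -0.38, Prkca at -0.17 and Cabp1, a calcium-binding protein, at -0.14, all with an adjusted p of 0.21 or more by limma.

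Cacna2d1 was set beside 12 genes known to be induced in sensory neurons by axon injury, a list that was chosen with results of these data known and is no independent evidence of its direction. In CPIP against Sham 11 of the 12 were called higher (0.355% of all genes were called), the exception being Smad1 (0.59, adjusted p = 0.0184 by limma), and in CPIP+EA against Sham 12 of 12 were (0.483% of all genes). None was called between CPIP+EA and CPIP by limma, with 1 at an unadjusted p under 0.05, where 4.29% of all genes were (Gal, the neuropeptide galanin, at a log2 fold change of 0.48). The medians were 1.69, 0.089 and 1.81 in CPIP against Sham, CPIP+EA against CPIP and CPIP+EA against Sham, where Cacna2d1 had 1.31, 0.14 and 1.45. Atf3, a transcription factor of the injury response, was at 4.77 to 6.86 FPKM in Sham, 50.5 to 61.6 FPKM in CPIP and 57.4 to 74.9 FPKM in CPIP+EA.

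The genes most like 3 of the channel genes over the 9 libraries were taken from 13914 genes with a mean of at least 1 FPKM, by Pearson r of log2(FPKM + 0.5). For Cacna2d1 they were Cdhr5 (r = 0.996, Spearman rho = 0.967), Gap43 (r = 0.995, rho = 0.917) and Gadd45a (r = 0.993, rho = 0.967). Sham and the other libraries form separate clusters for these genes, and over the 6 libraries of CPIP and CPIP+EA alone the r was 0.955, 0.971 and 0.920. Gap43, a growth-cone protein, was at 125 to 139 FPKM in Sham, 270 to 336 FPKM in CPIP and 269 to 355 FPKM in CPIP+EA. For Cacna1b they were Zfyve28, Clcn6 and Ttbk1 (r = 0.980, 0.980 and 0.970, rho = 0.983, 0.983 and 0.917), and without CPIP+EA replicate 3 r was 0.942, 0.964 and 0.924. For Cacna1h they were Tceal3, Med25 and Acpp (r = 0.970, 0.962 and 0.956, rho = 0.867, 0.900 and 0.950), and 0.943, 0.929 and 0.920 without that library. The points share libraries and their scaling, and the genes were picked for their r, so these values are descriptions.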

How the data were processed

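RNA was extracted from ipsilateral L4-6 DRGs, and the authors deposited 1 table with the FPKM of each gene in each of the 9 libraries, rounded to 2 decimals. The authors deposited beside them, for each pair of groups, a log2 ratio with its p-value and q-value, which hold their own comparisons and were not used. The authors filtered reads with SOAPnuke, and the aligner, quantifier, genome build and annotation are not given in the sources used here. FPKM values keep no counts, so no count test was run, and no depth was used here.

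Samples were assigned to groups and replicates from their titles. log2(FPKM + 0.5) of the 17187 genes with a mean of at least 0.1 FPKM was fitted in limma 3.58.1 under R 4.3.3, with contrasts between groups and a trended empirical Bayes step, all 9 libraries in 1 fit without covariates, two-sided, with Benjamini-Hochberg adjustment over all genes tested. The threshold, an adjusted p under 0.01 and at least 1.5-fold, is the study's. In simulated data for CPIP against Sham with 17090 genes, 86 of 100 genes changed 2-fold and 98 of 100 changed 4-fold were called, with 2 unchanged genes called. The changed genes were drawn from those with a mean log2(FPKM + 0.5) above 1, a level that Cacna1e and Cacna1i did not reach. The noise was independent for each gene, without shifts shared by a library, and changes near 1.5-fold were not simulated. Tables were made with Python 3.11.15, pandas 2.3.3, numpy 2.4.6 and scipy 1.17.1, and figures with matplotlib 3.10.9.

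The 10 genes and all lists were chosen with earlier results of these data known. All 10 are named. From the channel and partner lists, genes with an unadjusted p under 0.05 in a comparison are named, and for Cacna2d1, Cacna1b and Cacna1h the 3 genes with the highest r. Of the marker lists, some are given beside results they move with. The fit was repeated with other pseudocounts (0.1 and 1), without the filter or with a minimum mean of 1 FPKM, after quantile normalization, on a TPM scale, after centring on neuronal markers, without the trend or with a robust one, with a block for the replicate number, on the compared groups alone, at an adjusted p under 0.05 with no fold limit, and with each library left out in turn.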

Additional observations from a re-analysis of the deposited data

How the results depend on the processing

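Over all alternatives, the log2 fold change of Cacna2d1 lay between 1.22 and 1.40 in CPIP against Sham, between 0.051 and 0.26 in CPIP+EA against CPIP and between 1.39 and 1.58 in CPIP+EA against Sham. Its adjusted p by limma was 0.000275 to 0.0127 in CPIP against Sham and 0.000163 to 0.00583 in CPIP+EA against Sham. With the replicate number as a block, 0 of the 10 genes passed the threshold in CPIP against Sham, since Cacna2d1 had a log2 fold change of 1.31 and an adjusted p of 0.0127 by limma. The correlation of deviations was -0.236 to 0.297 between same-numbered libraries of different groups, and -0.223 to 0.280 between those with different numbers. What libraries of the same number share is not given by the labels. The block changed no other call of the 10 genes. It called 26 instead of 61 of all genes in CPIP against Sham and 42 instead of 83 in CPIP+EA against Sham. These counts fell as low as 30 (without CPIP replicate 3 or Sham replicate 2) and 35 (without CPIP+EA replicate 2) with 1 library left out. Leaving out 1 library in turn, the number of the 10 genes at an unadjusted p under 0.05 was 1 to 3 in CPIP against Sham (1 when Sham replicate 1, Sham replicate 2 or CPIP replicate 2 was left out, and 3, with Cacna1h added, when it was CPIP+EA replicate 1), 0 to 3 in CPIP+EA against CPIP (none when CPIP replicate 1 was left out, 2 when it was CPIP+EA replicate 1, and 3 when it was CPIP+EA replicate 3, namely Cacna1c, Cacna2d1 and Cacna2d3) and 2 to 4 in CPIP+EA against Sham (4 without CPIP+EA replicate 1). Directions turned only in log2 fold changes that were not called. Cacna1e was at -0.016 with quantile normalization in CPIP against Sham, at -0.012 on the TPM scale and -0.026 on the neuronal scale in CPIP+EA against CPIP, and at -0.010 on the TPM scale, -0.012 with quantile normalization and -0.0014 on the neuronal scale in CPIP+EA against Sham. Leaving out 1 library gave, in CPIP against Sham, -0.068 to 0.0088 for Cacna1a and -0.024 to 0.058 for Cacna1e. In CPIP+EA against CPIP it gave -0.30 to 0.014 for Cacna1a, -0.27 to 0.027 for Cacna1b, -0.051 to 0.067 for Cacna1e and -0.17 to 0.12 for Cacna2d2. In CPIP+EA against Sham it gave -0.15 to 0.15 for Cacna1b and -0.041 to 0.077 for Cacna1e. The causes were not tested. Cacna1i had no value at a mean of at least 1 FPKM, which it did not reach. Differences under 1.5-fold were barred from a call by the threshold itself, and the 3 libraries a group limit the precision of all values.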

Other observations

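Genes around the channels at the terminal and around gabapentinoid transport were described from lists beyond the channel itself. Of 12 genes of the release machinery next to presynaptic channels, 12 were tested and 0 were called in any comparison by limma, with 1, 0 and 1 at an unadjusted p under 0.05 in CPIP against Sham, CPIP+EA against CPIP and CPIP+EA against Sham. Of all genes tested, 8.66%, 4.29% and 12.2% were under it in these comparisons, which holds beside the counts below too. Snap25, a SNARE protein of vesicle fusion, was at 610 to 669 FPKM in Sham and 529 to 560 FPKM in CPIP (log2 fold change -0.24, adjusted p = 0.308 by limma). Erc2, a scaffold of the active zone, was at 0.33 in CPIP+EA against Sham (adjusted p = 0.25 by limma). The medians of the list were -0.012, 0.033 and -0.027.

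Of 12 partners of alpha2delta subunits and transporters of gabapentinoids and related amino acids, 12 were tested and 0 were called by limma, with 1, 2 and 2 at an unadjusted p under 0.05 and medians of -0.092, -0.092 and -0.17. Lrp1, a receptor that binds alpha2delta, was at 20.2, 19.8 and 20.2 FPKM in Sham, 18.2, 19.5 and 18.4 FPKM in CPIP and 15.3, 12.3 and 16.2 FPKM in CPIP+EA. Its CPIP+EA libraries were below all others, with log2 fold changes of -0.36 against CPIP and -0.46 against Sham (adjusted p = 0.996 and 0.0568 by limma). For markers of other cells in the same libraries, the median log2 fold changes against CPIP and against Sham were -0.48 and -0.44 over 7 Schwann cell markers and -0.31 and -0.55 over 5 fibroblast markers, none of them called. The Schwann cell markers summed to 7103 to 11286 FPKM in Sham, 6752 to 12058 FPKM in CPIP and 4738 to 9432 FPKM in CPIP+EA, and the fibroblast markers to 795 to 1078, 679 to 890 and 445 to 912 FPKM. At an unadjusted p under 0.05, 1 of 7 and 0 of 5 were lower against CPIP, and 0 of 7 and 4 of 5 against Sham. Their part in the Lrp1 level was not tested. Slc3a2, the heavy chain of amino acid transporters of the L system, was at 0.12 in CPIP against Sham, and Slc7a8, a light chain, at -0.24 in CPIP+EA against Sham, with adjusted p of 0.572 and 0.371 by limma. Bcat2, which transaminates branched-chain amino acids, was at 0.19 in CPIP+EA against CPIP.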
